A study of Mus musculus with 196 samples.

Results

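Zglp1 was 1 of 25706 endogenous genes in the deposited table of RPM, which are the reads of a gene scaled by the library's total on endogenous genes. It was taken by its symbol, together with the 3 rows whose names mark them as transgene sequence (mCherry, rtTA and puroR), so 4 of 25709 rows were followed across 195 mouse libraries. The libraries were 192 of primordial germ cell-like cells (PGCLCs, germ cells that arise in a dish once embryonic stem cells have been turned into epiblast-like cells and induced) and 3 of embryonic germ cells. The study asked what ZGLP1 does in the choice of the oogenic fate.

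The PGCLC lines had a mixed background that the labels give as 129S1:C57BL/6=1:1. The parent line H18 carried Prdm1-mVenus and Dppa3-ECFP reporters, which mark early germ cells, and so did every clone. Zko_E5 and Zko_G10 were Zglp1-/- clones, and Sko_B6 and Sko_F6 were Stra8-/- clones. OE_A2 held a piggyBac-D4Z4 vector with the Zglp1 coding sequence, an IRES and mCherry behind a tetracycline-responsive promoter and a puromycin resistance gene behind the EF1a promoter, and a second vector with EF1a-driven rtTA, the activator that binds this promoter when doxycycline (Dox) is present. OESko_A11 held the same vectors and was Stra8-/-. Each clone stands for 1 event of cloning, and Dox was given to no line that lacked the transgene.

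Day 0 cells were PGCLCs sorted for the Prdm1 reporter at the end of induction, and later cells were grown on m220 feeder cells and sorted for the Dppa3 reporter. H18 received no cytokine (control), BMP2, retinoic acid (RA), or both (B2RA), at days 3.5 and 4, and BMP2 or B2RA at days 5, 7 and 9. At days 4, 5, 7 and 9 the Zglp1 knockout clones received control, BMP2 or B2RA conditions, the Stra8 knockout clones control or B2RA, and OESko_A11 control or Dox with RA (DoxRA). OE_A2 received control, Dox, DoxRA, BMS, BMS with Dox (BMSDox), medium without serum (SerumMinus), and that medium with WIN (SerumMinusWIN) or with WIN and Dox (SerumMinusWINDox), where BMS and WIN are compounds that the labels name no further. Neither transgene clone received RA without Dox, so where DoxRA is set against control the parts of Dox and RA cannot be told apart. Groups held 2 libraries, except for 1 library a day of SerumMinus. The embryonic cells, with the background ICR:C57BL/6=1:1, were E9.5 germ cells with a Dppa3-EGFP reporter and E14.5 and E15.5 oocytes with a Ddx4-RFP reporter, 1 library each.

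ZGLP1 is a nuclear protein with zinc fingers like those of the GATA transcription factors, and it is known from the gonad. Bone morphogenetic proteins such as BMP2 bind paired receptors on the cell surface, and these phosphorylate SMAD1, SMAD5 and SMAD9, which enter the nucleus with SMAD4 and raise target genes such as the Id and Msx genes. RA binds nuclear receptors, and in fetal germ cells it raises Stra8, which is needed for meiotic entry.

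Zglp1 (identifier 100009600) lies on the minus strand at chr9:21062393-21067093 of mm10 (GENCODE vM21), with 5 exons in its coding transcript. The last exon has 325 bases, of which 127 are coding and 198 run from the stop codon on, so a tag near the 3' end can fall in sequence that the transgene also holds. Gm49373, a protein-coding model on the same strand at chr9:21062400-21073096, covers nearly all of Zglp1 and is not a row of the table, so tags of the 2 models cannot be told apart. The promoter is shown because BMP2, RA and GATA-like proteins are the subject of the comparisons. It is 300 bases of RefSeq sequence (GRCm38.p6, chr9:21067044-21067343, minus strand), from 250 bases before the start to 50 after, 5′ to 3′, with a SMAD palindrome and 3 kinds of E-box in capitals, each of them spelled out after the sequence.
Zglp1 promoter: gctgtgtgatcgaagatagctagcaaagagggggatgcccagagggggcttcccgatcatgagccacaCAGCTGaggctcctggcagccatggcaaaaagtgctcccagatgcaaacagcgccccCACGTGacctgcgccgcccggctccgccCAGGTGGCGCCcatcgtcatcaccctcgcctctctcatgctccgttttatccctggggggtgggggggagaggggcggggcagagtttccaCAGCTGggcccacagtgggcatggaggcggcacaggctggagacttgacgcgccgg

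GGCGCC, a palindrome known from SMAD1 and SMAD5 targets, begins at base -92 relative to the start (the base just before it is -1) and shares its first base with the CAGGTG that begins at -97. GGCGCC was found in 12.0% of 27025 promoters of this length. The E-box CACGTG begins at -125 (7.2% of promoters) and CAGCTG begins at -182 and -6 (16.1%), whereas CAGGTG or its reverse complement was in 20.0% of promoters. GATA, searched on both strands, was found at -236 and -50 and in 58.3% of promoters, and AGGTCA, a core of RA receptor sites, at -121 and in 16.0%. CAGAC, the SMAD box, had no match on either strand and was in 49.7% of promoters. The GC box GGGCGG was found at -112, -102 and -25 (35.9%), and TATAAA had no match (14.2%). The window is rich in G and C, at 65.7% against a median of 52.7% over all promoters. These matches describe letters in this window and not binding.

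Libraries held from 877040 to 5196593 reads on endogenous genes, so that 1 read was worth 0.192 to 1.14 RPM, and a library with no read of Zglp1 allows up to 3 reads. No pair of replicates held identical values. The labels do not say that replicates came from separate cultures, so p-values measure the spread between libraries, which may be technical. Of the libraries with a known extraction, 22 were made by a protocol that names 1 RNA kit and 172 by one that names either of 2 kits. In OE_A2 the Dox and DoxRA libraries of days 4 to 7 were made mostly by the first and the controls by the second, so that treatment and extraction cannot be told apart there, nor in H18 at day 4, where the controls were made by the first. Summed levels were taken of 12 genes of stroma, the cells that feeders resemble. They ran from 107 to 999 RPM with BMP2 or B2RA and from 406 to 1492 RPM in control libraries, the transgene clones included. Most of this sum was Fn1, with medians of 429 and 605 RPM beside 578 and 829.5 RPM for the sum. Summed levels of 10 genes of gonadal soma ran from 5.48 to 234.8 RPM (median 17.4) and from 6.85 to 83.2 RPM (median 19.4). Of these, Amh had no read in either set, and Foxl2, Nr5a1 and Lhx9 had medians of 0 RPM in both. The highest libraries of Gata4, Wnt4 and Wt1 held 105, 40.1 and 28.7 RPM with BMP2 or B2RA against 29.3, 11.5 and 1.65 RPM. Medians of these genes were 1.86, 1.915 and 0.13 RPM against 0.725, 1.51 and 0.35 RPM. The medians of Nr0b1 and Fst were lower with BMP2 or B2RA, at 3.93 and 2.135 RPM against 9.01 and 2.86 RPM. Sox9 had medians of 0.12 and 0 RPM. The part of these cells in the results was not tested. In sorted bulk cells, fewer cells with a transcript and less of it in each cell cannot be told apart.

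Among libraries without the transgene, 2 stood apart in the transgene rows. One column named for H18 with B2RA at day 4 matches its group but no single sample title, and it held 3.36 RPM on the mCherry row, 4.80 RPM on the rtTA row and 165 RPM on the puroR row, each above its numbered replicate at 0, 0 and 50.3 RPM. Its Zglp1 level was 4.32 RPM beside 18.3 RPM in that replicate. The first H18 library with B2RA at day 7 held 30.5 RPM of rtTA, whereas its replicate was at 0. Below, the library that held rtTA reads is this one. Lower rtTA levels stood elsewhere, such as 2.88 RPM in an H18 control library at day 4 and 3.35 RPM in a Sko_F6 control library at day 5. Both H18 libraries with BMP2 at day 4 held rtTA (2.74 and 2.56 RPM) and mCherry (1.17 and 0.426 RPM). They are the whole BMP2 group of day 4, and the part of these reads was not tested. No comparison named here had the unmatched column in its groups. Both libraries did count in the spread of the fit, the ranges by treatment and the rankings of likeness. Comparisons that included the day 7 library give the pooled change of Zglp1 with and without it. Their values by clone, list counts and background shares are given only with it. Without it the genes called went from 982 to 1231 for B2RA against BMP2 in H18. For the Zglp1 and Stra8 knockout clones against H18 with B2RA they went from 1913 to 2282 and from 1017 to 1279.

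Zglp1 was near the floor of detection in untreated H18 cells and rose over the days of culture with BMP2, with or without RA. In control libraries Zglp1 stood at 0 and 1.88 RPM at day 3.5 and at 0.410 and 2.88 RPM at day 4. With BMP2 it stood at 5.34 and 6.58 RPM at day 3.5, 16.8 and 20.0 RPM at day 4, 21.6 and 26.1 RPM at day 5, 49.0 and 53.9 RPM at day 7, and 50.4 and 62.3 RPM at day 9. Every BMP2 library lay above every control library, and the days did not overlap up to day 7, whereas days 7 and 9 did. With B2RA the pairs were 5.87 and 8.08 RPM at day 3.5, 14.3 and 20.3 RPM at day 5, 52.2 and 82.1 RPM at day 7, and 48.8 and 53.6 RPM at day 9. RA alone gave 1.53 and 1.29 RPM at day 3.5 and 6.81 and 0.829 RPM at day 4, which overlapped the controls at both days.

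**Figure D1:**
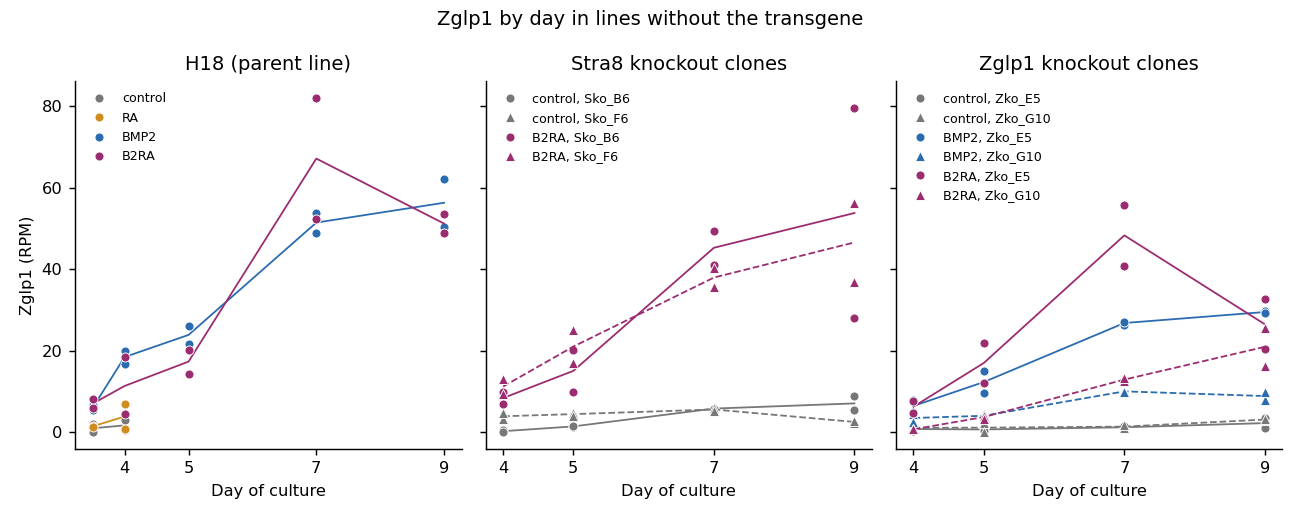
Zglp1 in RPM against the day of culture, 1 panel each for H18, the Stra8 knockout clones and the Zglp1 knockout clones. Points are libraries and lines join the means of each day (solid and circles for the first clone named, dashed and triangles for the second). Control libraries stay at 8.75 RPM or lower, and libraries with BMP2 or B2RA reach 82.1 RPM.

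At day 3.5 the change with BMP2 was 2.03 ± 0.51 (SE) on the log2(RPM + 1) scale with an adjusted p of 0.788, and with B2RA it was 2.22 ± 0.51 with an adjusted p of 0.113, both short of the threshold (adjusted p under 0.05 and a change of at least 1). In both of these comparisons limma called 0 of the genes tested (11264 and 11267), with 258 and 745 genes at an unadjusted p under 0.05, so the background there was 0.0% called. edgeR also called 0 genes in both. With no filter on low values Zglp1 passed with B2RA at day 3.5 (adjusted p = 0.0168). With RA alone Zglp1 did not reach 2 RPM in 2 libraries and was not tested at day 3.5. At day 4 the change with BMP2 was 3.05 ± 0.51 (adjusted p = 7.66e-05, background 1.35% called), which cannot be told apart from the extraction protocol.

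From day 4 to day 9 with BMP2, Zglp1 rose by 1.56 ± 0.51 on the log2 scale (adjusted p = 0.0173), from a mean of 18.4 ± 2.27 (SD, n = 2) to 56.3 ± 8.37 RPM (n = 2). The call was lost whichever of the 4 libraries was left out (1.41 to 1.71, adjusted p from 0.0566 to 0.111), with the lone library of that day assumed to vary like the other groups, and with array weights (adjusted p = 0.0592). In this comparison 18.5% of all genes tested were called. No untreated H18 library after day 4 was analysed here, so time and BMP2 cannot be separated in H18 past that day. B2RA and BMP2 were compared over days 5, 7 and 9, and the difference of Zglp1 was -0.08 ± 0.30, with a 95% interval from -0.67 to 0.51 (adjusted p = 0.884, background 6.97%). Without the library that held rtTA reads it was 0.03 (adjusted p = 0.961). Of 5 gonadal soma genes tested there, Wt1, Wnt4 and Gata4 were higher with B2RA and Nr0b1 was lower, and their part was not tested.

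The genes of the BMP pathway were taken from a list of 20 receptors, SMADs and targets. From day 4 to day 9 in H18 with BMP2, 6 of 18 tested members rose and none fell. Over all genes tested 18.5% were called, in either direction. The members that rose were Id1, Id2 and Id4, which encode inhibitors of helix-loop-helix proteins, the homeobox gene Msx1, Smad9 and the receptor gene Bmpr1a. Id1 rose from 47.4 to 304 RPM, a change of 2.58 ± 0.58 (adjusted p = 0.000412). The median change of the list was 0.80, beside 0.26 over all genes tested. Among 9 GATA genes and partners, 4 were tested, and Gata2 and Gata3 rose, by 1.38 ± 0.53 and 1.85 ± 0.62. Of 16 genes of meiosis and the oocyte, 13 were tested and all 13 rose.

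In the Stra8 knockout clones Zglp1 rose with B2RA in both clones. In the control libraries of Sko_B6 it stood at 0.435 and 0 RPM at day 4, 1.17 and 1.61 RPM at day 5, 5.91 and 5.64 RPM at day 7, and 5.33 and 8.75 RPM at day 9. With B2RA it stood at 6.96 and 9.75 RPM, 9.87 and 20.2 RPM, 41.1 and 49.5 RPM, and 79.7 and 27.9 RPM on the same days. The groups did not overlap on any day, and the 2 libraries with B2RA at day 9 lay far apart. In Sko_F6 the control libraries held 2.14 to 5.84 RPM over the 4 days, and those with B2RA went from 13.0 and 9.33 RPM at day 4 to 56.4 and 36.8 RPM at day 9.

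Over both Stra8 knockout clones and 4 days the change with B2RA was 2.58 ± 0.18 on the log2(RPM + 1) scale (adjusted p = 1.4e-23, 16 libraries against 16), in a comparison where 4.47% of genes were called. It was 2.75 ± 0.26 in Sko_B6 and 2.41 ± 0.26 in Sko_F6. By day it was 2.13 at day 4, 2.34 at day 5, 2.67 at day 7 and 3.18 at day 9, each with an SE of 0.36 and each called, with no overlap of libraries on any day. Under B2RA alone the level of day 9 was 2.17 ± 0.36 above that of day 4 (adjusted p = 2.82e-07), a contrast chosen after values had been seen. Set against H18 with B2RA over days 5, 7 and 9, the Stra8 knockout clones differed by -0.26 ± 0.26, with an interval from -0.77 to 0.25 (adjusted p = 0.45, background 7.09%), and by -0.37 without the library that held rtTA reads (adjusted p = 0.329).

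Of the BMP list, 7 of 20 members rose with B2RA in the Stra8 knockout clones and none fell (4.47% of all genes tested were called). The risers were Id1, Id2, Id3, Smad6 and Smad9 of the pathway's targets and mediators and the homeobox genes Msx1 and Msx2. Id1 stood at a mean of 215 RPM against 7.79 RPM in the controls, a change of 4.19 ± 0.21. The list's median was 0.62 beside 0.10 over all genes. Of the GATA list, 3 of 6 tested members rose (Gata2, Gata3 and Gata4). Of 10 RA genes, 6 rose, among them Rarb, which encodes a receptor of RA, and Cyp26a1, which encodes an enzyme that degrades it. Of the meiotic and oocyte list 10 of 15 tested members rose. The Stra8 row is a member of both of these lists and is counted among the risers, at a mean of 104 RPM against 3.00 RPM (3.24 ± 0.25, adjusted p = 4.28e-20). The labels do not say which part of Stra8 was deleted, so a 3' tag gives no check of that knockout.

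In the clones labelled Zglp1-/- the Zglp1 row still rose with BMP2. The labels do not say which part of the gene was deleted, and a 3' tag outside the deleted part gives no check of the knockout. In Zko_E5 the control libraries held 0.346 to 3.35 RPM. With BMP2 the clone held 4.99 and 7.86 RPM at day 4, 15.0 and 9.58 RPM at day 5, 26.4 and 27.2 RPM at day 7, and 29.8 and 29.2 RPM at day 9. With B2RA the pairs were 4.79 and 7.69 RPM, 22.0 and 11.9 RPM, 40.8 and 55.8 RPM, and 32.7 and 20.3 RPM. No treated library of Zko_E5 overlapped its controls.

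In Zko_G10 the control libraries ranged from 0 to 3.24 RPM. With BMP2 it held 4.41 and 2.51 RPM at day 4, 4.34 and 3.66 RPM at day 5, 10.2 and 9.81 RPM at day 7, and 7.90 and 9.79 RPM at day 9, below Zko_E5 on each of these days. With B2RA it held 0.718 and 0.644 RPM, 4.06 and 3.32 RPM, 12.5 and 13.3 RPM, and 16.3 and 25.6 RPM, and the libraries of the 2 clones overlapped at day 9. The day 4 libraries with B2RA lay below the controls of that day, at 1.105 and 0.982 RPM, and from day 5 all treated libraries lay above theirs. All 4 libraries of day 0 from both clones held 2 reads or fewer.

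Over both knockout clones and 4 days the change was 2.28 ± 0.18 with BMP2 (adjusted p = 1.73e-19, background 1.13% called) and 2.40 ± 0.18 with B2RA (adjusted p = 1.05e-21, background 3.35%). With BMP2 it was 3.03 ± 0.26 in Zko_E5 and 1.52 ± 0.26 in Zko_G10, and with B2RA it was 3.28 ± 0.26 and 1.52 ± 0.26. At day 4 neither change was called, at 1.60 ± 0.36 with BMP2 (adjusted p = 0.051) and 0.89 ± 0.36 with B2RA (adjusted p = 0.489), and at days 5, 7 and 9 both were. The B2RA response of the Zglp1 knockout clones differed from that of the Stra8 knockout clones by -0.18 ± 0.26, with an interval from -0.69 to 0.33 (adjusted p = 0.794).

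Compared with H18 on the same days, the Zglp1 row of the knockout clones was lower by -1.68 ± 0.22 with BMP2 (adjusted p = 1.82e-09, background 4.05%) and by -1.16 ± 0.26 with B2RA over days 5, 7 and 9 (adjusted p = 9.26e-05, background 13.4%). The second call was lost without replicate 2 (-0.91, adjusted p = 0.055) and fell under the size required with a pseudocount of 5 (-0.97). Without the library that held rtTA reads it was -1.27 (adjusted p = 0.000115). In RPM the means were 12.7 against 37.5 with BMP2 and 21.6 against 45.2 with B2RA. By clone, the difference with BMP2 was -1.04 ± 0.26 in Zko_E5 and -2.31 ± 0.26 in Zko_G10. With B2RA it was -0.49 ± 0.30 in Zko_E5 (adjusted p = 0.167) and -1.83 ± 0.30 in Zko_G10 (adjusted p = 2.96e-07). The difference with BMP2 was called at days 4, 7 and 9 but not at day 5 (adjusted p = 0.0548). With BMP2, 4 of 11 stroma genes tested (Col1a1, Col1a2, Col3a1 and Lox, of the extracellular matrix) were also higher in these clones than in H18, and their part in the difference was not tested.

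The 2 clones were then set against each other, after their values had been seen. Zko_E5 exceeded Zko_G10 by 1.27 ± 0.26 with BMP2 (adjusted p = 0.00237) and by 1.52 ± 0.26 with B2RA (adjusted p = 0.000219), whereas in control libraries the difference was -0.24 ± 0.26 (adjusted p = 0.951). The means were 18.8 and 6.58 RPM with BMP2 and 24.5 and 9.55 RPM with B2RA. Libraries of the 2 clones overlapped when the 4 days were pooled.

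The BMP list moved in the knockout clones as well. With BMP2, 5 of 19 tested members rose and none fell (1.13% of all genes tested were called), namely Id1, Id2, Msx1, Msx2 and Bambi, which encodes a decoy receptor. Id1 had a mean of 105 RPM against 8.27 RPM in controls, a change of 3.53 ± 0.21. With B2RA 8 of 19 rose (3.35% of all genes). Gata2 and Gata3 rose with BMP2, by 1.20 ± 0.19 and 1.07 ± 0.22, while 0 of 12 tested genes of the meiotic and oocyte list were called in limma, with 3 at an unadjusted p under 0.05, and edgeR called 1 of them lower. At a background of 1.13%, a count of 0 of 12 is not a result about these genes. Compared with H18, 9 of 13 of that list were lower with BMP2 (4.05% of all genes called) and 9 of 15 with B2RA (13.4%). Of the 19 tested genes of the BMP list none was called with BMP2 in limma (5 at an unadjusted p under 0.05) and 1 was higher in edgeR. With B2RA 2 of 19 (Smad1 and Acvr2b) were higher and 1 (Id3) was lower. Beside backgrounds of 4.05% and 13.4%, these counts are not a result about the BMP list.

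**Figure D2:**
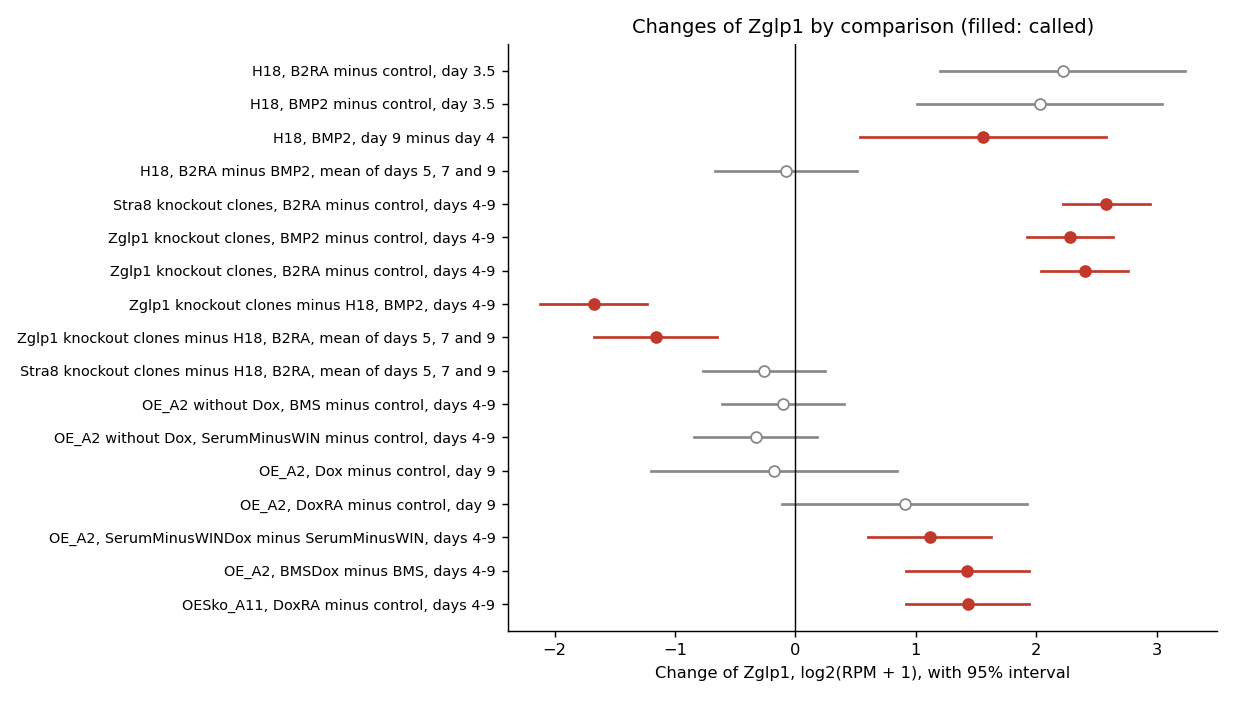
Change of the Zglp1 row on the log2(RPM + 1) scale for each comparison, with 95% intervals from the fit across all genes. Filled red points passed the threshold and open grey ones did not. The rises with B2RA or BMP2 in knockout clones lie between 2.28 and 2.58, and the differences of the Zglp1 knockout clones from H18 are -1.68 and -1.16.

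At day 9 the mean level of Zglp1 was highest in H18 with BMP2 (56.3 ± 8.37 RPM, n = 2), followed by Sko_B6 with B2RA (53.8 ± 36.6 RPM), H18 with B2RA (51.2 ± 3.36 RPM) and Sko_F6 with B2RA (46.6 ± 13.9 RPM). These 4 groups overlapped one another in this order. The lowest library of Sko_F6 lay above the highest of the next group, Zko_E5 with BMP2 (29.5 ± 0.395 RPM). The lower library of Sko_B6, at 27.95 RPM, lay below the range of Zko_E5 with BMP2 (29.22 to 29.78 RPM). The 4 groups are thus not set apart from that group. Below it came Zko_E5 with B2RA (26.5 ± 8.76 RPM), Zko_G10 with B2RA (20.9 ± 6.56 RPM) and 4 of the 5 Dox-treated groups of the transgene clones, whereas OE_A2 with Dox (5.61 ± 0.642 RPM) came below its control (6.65 ± 2.28 RPM). From Zko_E5 downwards each group overlapped the next, as far as the control of Zko_G10 at 3.07 ± 0.237 RPM, which did not overlap the control of Sko_F6 at 2.49 ± 0.498 RPM. The lowest of the 22 groups was OE_A2 in SerumMinus, at 2.07 RPM in 1 library. These are levels of the Zglp1 row, and how much of it came from the transgene was not tested. The order does not rank the Dox groups by their transgene, which was followed by the mCherry row. In the clones labelled Zglp1-/- the row is no check of the knockout.

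In the embryo Zglp1 stood at 0.957 RPM (4 reads) in the E9.5 library, 23.0 RPM (76 reads) in the E14.5 library and 21.4 RPM (60 reads) in the E15.5 library. With 1 library a stage there is no test. Both oocyte libraries lay below every H18 library with BMP2 or B2RA at days 7 and 9, between 48.8 and 82.1 RPM, and the E9.5 library lay within the range of the H18 controls. Embryonic and cultured cells differ in strain, sorting and extraction.

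Genes with a pattern like that of Zglp1 were ranked by the Pearson correlation of group means on the log2(RPM + 1) scale. The points share days and control groups, so the values are a description. Over 30 groups of H18 and the Stra8 knockout clones, with 10550 genes, the 5 genes most like it were Id1 (r = 0.929), Fgfr3 (0.908), Dopey2 (0.905), Nr3c1 (0.901) and Med12l (0.892). Id1 had group means from 4.00 to 667 RPM there. Over all 94 PGCLC groups from day 3.5 on, they were Unc5b (0.760), Dusp9 (0.752), Fgfr3 (0.749), Gm4779 (0.722) and Coch (0.722), and Id1 ranked 10 at 0.694. Fgfr3, a receptor for fibroblast growth factors, was on both lists. Over the 54 groups of lines without the transgene, a set added to these, they were Nr3c1 (0.840), Hhex (0.831), Id1 (0.828), Dopey2 (0.828) and Edem2 (0.822), and Fgfr3 was not among the 5.

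Neighbouring genes did not follow Zglp1 at a like size. Fdx1l, which encodes a mitochondrial ferredoxin, has an annotated model on the same strand that ends 427 bases upstream of the start of Zglp1, and it was abundant in each PGCLC library, from 37.5 to 178 RPM. Its change with B2RA in the Stra8 knockout clones was 0.31 ± 0.08 on the log2 scale, and in the Zglp1 knockout clones it was 0.23 ± 0.08 with BMP2 and 0.30 ± 0.08 with B2RA, none of them of the size required for a call. Of Icam1, Icam4, Icam5, Raver1 and Tyk2, the other genes within 50 kb that were tested, none was called with BMP2 or B2RA in these clones. The change nearest to a call was that of Icam1 with B2RA in the Zglp1 knockout clones (0.99 ± 0.16, adjusted p = 3.35e-07), which missed it by size. Icam4, Icam5 and Tyk2 were also higher there (0.64, 0.60 and 0.31, adjusted p = 0.0231, 0.0115 and 0.00713), under that size. Raver1 was at 0.26 (adjusted p = 0.127). Mir1900 had no read in any PGCLC library. With DoxRA in OE_A2 at day 9, where 48.0% of genes were called, Fdx1l and Icam1 fell by 1.19 and 1.85 on the log2 scale.

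The transgene was followed by its mCherry row. In lines without the transgene 95 of 112 PGCLC libraries had no mCherry read and the highest held 3.36 RPM, or 2.08 RPM without the column that matches only its group. Without Dox the clones were not at this background. The 32 libraries of OE_A2 without Dox had a lowest value of 43.5, a median of 186 and a highest of 557 RPM, and the 8 of OESko_A11 had 150, 184 and 329 RPM. In control libraries over 4 days the clones differed by 0.02 ± 0.23 on the log2 scale, with an interval from -0.45 to 0.50 (adjusted p = 0.967, background 1.64%).

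Dox raised mCherry in each medium. In OE_A2 at day 9 it stood at 406 and 162 RPM in control libraries and at 1659 and 925 RPM with Dox, a rise of 2.27 ± 0.47 (adjusted p = 0.00036, background 20.3%). With only these 4 libraries in the fit the adjusted p was 0.0646. With DoxRA it stood at 4609 and 1720 RPM, a rise of 3.45 ± 0.47 (adjusted p = 7.75e-08, background 47.5%). Dox and DoxRA at day 9 differed by 1.18 ± 0.47 (adjusted p = 0.0647), short of the threshold. At days 4, 5 and 7 the rises were 3.03 to 3.52 with Dox and 2.96 to 4.22 with DoxRA, where extraction differs from that of the controls.

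At day 9 the row was higher in the other media with Dox than with Dox alone in control medium. There SerumMinusWINDox (8009 and 4566 RPM) overlapped DoxRA (4609 and 1720 RPM), and no test between these is given here. With SerumMinusWINDox the row ranged from 4066 to 8009 RPM over 8 libraries (median 5712) against 147 to 557 RPM with SerumMinusWIN. The rise was 4.55 ± 0.23 (adjusted p = 1.71e-18, background 11.9%). With BMSDox it ranged from 5471 to 17420 RPM against 43.5 to 277 RPM with BMS, a rise of 6.08 ± 0.23 (adjusted p = 1.81e-22, background 14.3%). Both held on each day without overlap. At day 9, SerumMinusWINDox exceeded Dox by 2.29 ± 0.47 (adjusted p = 0.0119, background 0.743%) and BMSDox exceeded Dox by 3.05 ± 0.47 (adjusted p = 0.000111, background 5.67%). The first of these calls was lost without either Dox library (2.71 and 1.87, adjusted p = 0.0792 and 0.255) or the first SerumMinusWINDox library (1.88, adjusted p = 0.521), and the second was kept in each of these refits.

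Without Dox, BMS and control differed by -0.67 ± 0.23 in mCherry over 4 days (adjusted p = 0.102, background 1.34%). At day 9 alone, BMS libraries stood at 43.5 and 95.9 RPM against 406 and 162 RPM in control, a fall of 1.97 on the log2 scale with an SE of 0.47 (adjusted p = 0.0147). SerumMinusWIN differed from control by 0.28 ± 0.23 (adjusted p = 0.842, background 0.198%).

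In OESko_A11 induction with DoxRA grew with time. The pairs were 490 and 510 RPM at day 4, 305 and 694 RPM at day 5, 1554 and 1087 RPM at day 7, and 5863 and 3819 RPM at day 9, against 150 to 329 RPM in controls. The mean change was 2.43 ± 0.23 (adjusted p = 2.53e-10, background 9.15%). By day it was 1.62 ± 0.47 at day 4 and 1.11 ± 0.47 at day 5, neither of them called (adjusted p = 0.0819 and 0.119), and 2.24 ± 0.47 at day 7 and 4.74 ± 0.47 at day 9, both called. Day 9 exceeded day 4 by 3.24 ± 0.47 with DoxRA (adjusted p = 1.31e-06), a contrast chosen after values had been seen. At day 9 OESko_A11 and OE_A2 with DoxRA differed by 0.75 ± 0.47 (interval -0.20 to 1.70, adjusted p = 0.207).

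**Figure D3:**
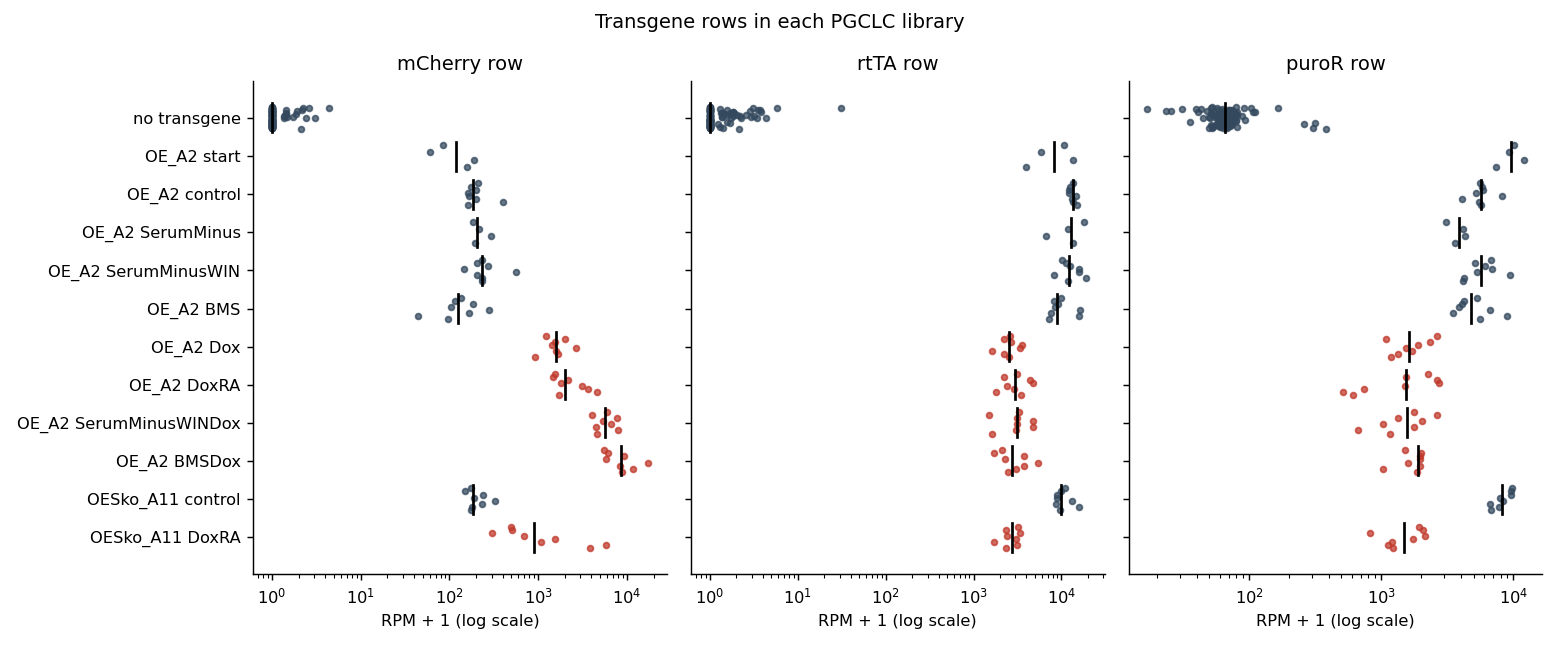
RPM + 1 on a log axis for the mCherry, rtTA and puroR rows in each PGCLC library, by line and treatment (red with Dox, dark without, black bars at medians). mCherry is highest with BMSDox, up to 17420 RPM, whereas rtTA and puroR are lower in each Dox group than in the groups without it from day 4 on.

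The rtTA row, read from the vector of the activator, was lower with Dox in each comparison. The 36 libraries of the transgene clones without Dox from day 4 on held 6657 to 18970 RPM (median 12000), and the 40 with Dox held 1483 to 5470 RPM (median 2948), with no overlap. At day 9 in OE_A2 it stood at 13580 and 15050 RPM in control libraries, at 2237 and 2544 RPM with Dox and at 1802 and 3429 RPM with DoxRA. The changes were -2.58 ± 0.46 with Dox, -2.52 ± 0.46 with DoxRA, -2.12 ± 0.23 in SerumMinusWIN medium, -1.78 ± 0.23 with BMS and -1.99 ± 0.23 with DoxRA in OESko_A11, and all 5 were called with no overlap. Dox and DoxRA at day 9 differed by 0.06 ± 0.46 (interval -0.87 to 0.99). At days 0 and 3 the 4 libraries of OE_A2 held 3970 to 13420 RPM. Lines without the transgene had no rtTA read in 74 of 112 libraries.

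The puroR row, read from the resistance gene of the mCherry vector, was lower with Dox, as rtTA was, whereas mCherry was higher. It held 3089 to 9696 RPM without Dox from day 4 on (median 5674) and 510 to 2729 RPM with Dox (median 1647), again with no overlap. The changes were -2.16 ± 0.39 with Dox and -3.33 ± 0.39 with DoxRA in OE_A2 at day 9, -2.02 ± 0.20 in SerumMinusWIN medium, -1.57 ± 0.20 with BMS, and -2.50 ± 0.20 with DoxRA in OESko_A11, and all 5 were called. At day 9 puroR was lower with DoxRA than with Dox, by -1.16 ± 0.39 (adjusted p = 0.0285). OESko_A11 exceeded OE_A2 by 0.54 ± 0.20 in control medium (adjusted p = 0.069). This row is not free of background, since each of the 112 PGCLC libraries without the transgene held reads of it, from 16.0 to 381 RPM with a median of 65.0, and the embryonic libraries held 51.8 to 71.3 RPM. The total behind RPM holds endogenous reads only, so the mCherry reads do not enter the denominator of the other rows.

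The Zglp1 row itself stayed low in the transgene clones while mCherry reached up to 17420 RPM. In the 40 libraries without Dox it ranged from 0.447 to 8.26 RPM (median 3.25) and in the 40 with Dox from 3.95 to 23.4 RPM (median 8.60), against 48.8 to 82.1 RPM in H18 with BMP2 or B2RA at days 7 and 9. At day 9 in OE_A2 it stood at 8.26 and 5.03 RPM in control libraries, at 5.16 and 6.07 RPM with Dox, and at 19.1 and 8.77 RPM with DoxRA. Neither change was called, at -0.18 ± 0.51 with Dox (interval -1.20 to 0.84, adjusted p = 0.831, background 21.5%) and 0.91 ± 0.51 with DoxRA (interval -0.11 to 1.93, adjusted p = 0.124, background 48.0%). At days 4, 5 and 7, where extraction differs, every Dox and DoxRA library of OE_A2 lay above the controls of its day. At day 4 controls stood at 6.13 and 3.68 RPM, Dox at 14.3 and 8.43 RPM (1.06 ± 0.51, adjusted p = 0.162) and DoxRA at 23.4 and 8.16 RPM (1.37 ± 0.51, adjusted p = 0.0448, called). At day 5 controls stood at 5.43 and 2.97 RPM, Dox at 5.90 and 6.06 RPM and DoxRA at 6.48 and 6.17 RPM, and neither change was called (0.47 and 0.54, adjusted p = 0.603 and 0.448). At day 7 controls stood at 2.20 and 1.18 RPM, Dox at 5.05 and 10.8 RPM (1.68 ± 0.51, adjusted p = 0.00753) and DoxRA at 7.01 and 8.05 RPM (1.69 ± 0.51, adjusted p = 0.00433), and both changes were called.

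Over 4 days the row was higher in 3 inductions, and in OESko_A11 Dox was given only together with RA. With SerumMinusWINDox the pairs were 7.95 and 6.60 RPM at day 4, 6.91 and 10.7 RPM at day 5, 3.95 and 4.06 RPM at day 7, and 9.75 and 14.3 RPM at day 9, against 0.846 to 6.71 RPM with SerumMinusWIN. The rise was 1.12 ± 0.26 (adjusted p = 0.000179, background 11.9%), and without replicate 1 it was 0.92, under the size required. With BMSDox the pairs were 7.08 and 15.7 RPM, 17.9 and 11.01 RPM, 4.28 and 10.1 RPM, and 13.9 and 17.98 RPM on the same days, against 1.88 to 8.13 RPM with BMS, and the rise was 1.43 ± 0.26 (adjusted p = 1.91e-06, background 14.3%). In OESko_A11 with DoxRA they were 4.53 and 6.01 RPM, 10.5 and 18.2 RPM, 10.1 and 14.4 RPM, and 14.8 and 11.1 RPM, against 0.447 to 6.04 RPM in control, and the rise was 1.43 ± 0.26 (adjusted p = 3.44e-06, background 9.14%). With a pseudocount of 5 these rises fell under the size required, at 0.65, 0.92 and 0.88. Each pair of groups overlapped when the 4 days were pooled, and none did on a single day.

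**Figure D4:**
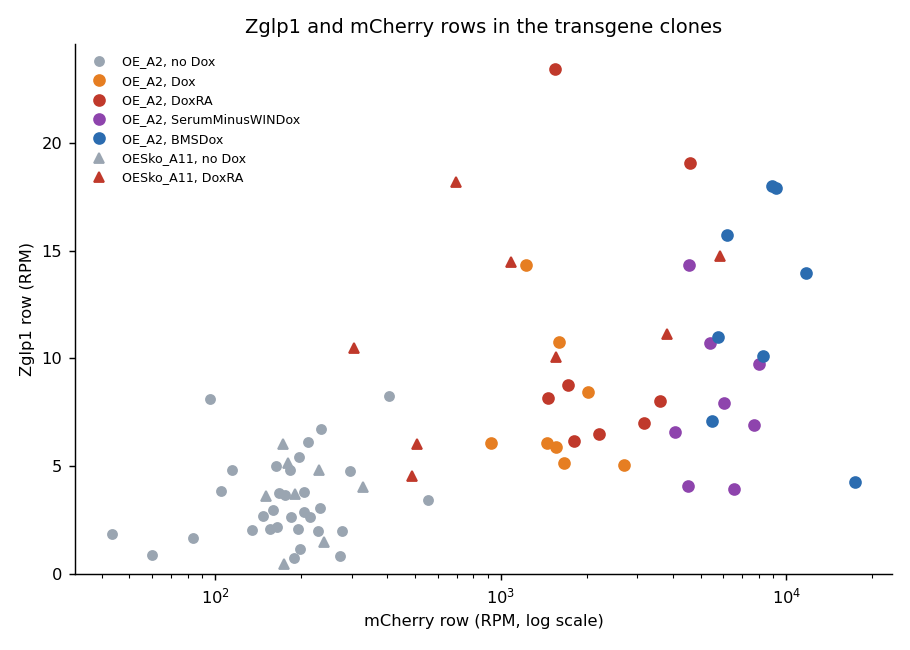
The Zglp1 row (RPM, linear axis) against the mCherry row (RPM, log axis) in each of the 80 libraries of the transgene clones, coloured by treatment (circles OE_A2, triangles OESko_A11). Libraries with Dox lie to the right, and their Zglp1 row spans 3.95 to 23.4 RPM over all 40 of them.

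Beside these rises stand those of mCherry, since tags from the coding part of the transgene would be counted on the Zglp1 row. The row rose by a mean of 4.85 RPM with SerumMinusWINDox while mCherry rose by 5595 RPM, which is 0.867 RPM per 1000 RPM of mCherry. The same ratio was 0.928 with BMSDox (8.34 and 8986 RPM), 4.76 in OESko_A11 with DoxRA (7.54 and 1582 RPM) and 2.52 in OE_A2 with DoxRA at day 9, and with Dox alone the row was lower by 1.03 RPM while mCherry rose by 1008 RPM. How much of the row came from the transgene was not tested. Of the BMP list, 0 of 18 members rose in limma with SerumMinusWINDox (9 had an unadjusted p under 0.05 in either direction), 0 of 18 with BMSDox (8) and 1 of 16 in OESko_A11 (Id1). edgeR called 1 higher in each of these 3, and Smad1 was lower in limma in the first 2. Of the meiotic and oocyte list, 15 of 16, 15 of 16 and 13 of 16 genes rose in limma in these comparisons. Over all genes tested, limma called 11.9%, 14.3% and 9.14% there, in either direction. Beside these shares, a count of 0 or 1 riser in the BMP list is not a result about its genes.

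Without Dox, neither BMS nor the removal of serum with WIN gave a called change of Zglp1 over the 4 days. BMS and control differed by -0.10 ± 0.26 (interval -0.61 to 0.41, adjusted p = 0.892, background 1.53%), and SerumMinusWIN and control by -0.33 ± 0.26 (interval -0.84 to 0.18, adjusted p = 0.775, background 0.388%). SerumMinusWIN libraries lay below the controls at day 4 (2.015 and 2.87 against 3.68 and 6.13 RPM) and day 5 (0.846 and 2.695 against 2.97 and 5.43 RPM) and above them at day 7 (3.44 and 3.83 against 1.18 and 2.20 RPM). Among the RA genes, Dhrs3, Stra8 and Rarb fell with BMS, and Crabp1 rose with SerumMinusWIN. SerumMinus alone, with 1 library a day, gave 2.65, 2.66, 4.76 and 2.07 RPM of Zglp1 at days 4, 5, 7 and 9.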

How the data were processed

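The values were RPM per gene, made from sequencing of the 3' ends of cDNA amplified from 1 ng of RNA, per the labels' protocols. The submitters' processing notes name cutadapt 1.9.1, TopHat2 2.1.0, Bowtie 1.1.2, SAMtools 1.3, HTSeq 0.9.1 and the build mm10, and their roles and the gene annotation are not given in the sources used here. The deposited table holds RPM scaled to each library's reads on endogenous genes, and in the 80 columns of the transgene clones, where the transgene rows lift the column's total above that scale, the authors' values were treated as a signal in the same unit. Of its 195 columns, 194 matched 1 sample and 1 matched its group only, 2 of 196 samples had no column of their own, and 0 columns were left unused. Values shifted on 3 lines, none of them followed here, were realigned.

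Whole reads were recovered from the steps of low values: in each library 100% of values lay within 0.05 of a whole read. Tests used limma 3.58.1 in R 4.3.3 on log2(RPM + 1), with moderated variances following a trend and robust to outliers. Zglp1 was fitted over 98 groups of 192 PGCLC libraries and the transgene rows over the 80 libraries of OE_A2 and OESko_A11, since zeros in other lines would shrink their spread. Genes with 2 RPM or more in at least 2 compared libraries were tested. Calls needed a log2 change of at least 1 and a p under 0.05 after Benjamini-Hochberg adjustment over all genes tested. The pseudocount understates the change of low genes. Means over days weighted days equally, and intervals were 95%. edgeR 4.0.16 (quasi-likelihood, TMM) on the recovered reads was the alternative, and it called 1058 genes with B2RA in the Stra8 knockout clones, where limma called 640.

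Simulated libraries took each gene's mean over all PGCLC libraries, the depths of the real libraries and a preset spread not estimated from these data. Changes were put into the group of H18 with BMP2 at day 9, tested against day 4 (12387 genes). There limma recovered 7 of 100 genes changed 2-fold and 61 of 100 changed 4-fold. With changes put into the B2RA groups of the Stra8 knockout clones (13836 genes) it recovered 46 and 100 of 100. These rates hold for the preset spread and were not measured at the spread of the real groups. Named genes were Zglp1 and the transgene rows, genes within 50 kb, the 5 genes most like Zglp1 in each set of groups (at least 10 RPM in 2 groups) and members of the lists. The members and the lists were chosen with earlier results of these data known. Alternatives were the pseudocount, the filter, TMM scaling, array weights, a replicate block, edgeR, narrower fits and leaving out replicates. After the values had been seen 2 more were added, which leave out the H18 libraries that stood apart in the transgene rows.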

Additional observations from a re-analysis of the deposited data

Results flagged for a closer look

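The rise of mCherry with Dox in OE_A2 differed between media. It was 1.53 ± 0.33 on the log2 scale larger with BMS than in SerumMinusWIN medium over days 4 to 9, by the test of the difference itself (adjusted p = 0.0252). Both the levels with Dox (5471 to 17420 RPM against 4066 to 8009 RPM) and those without it (43.5 to 277 RPM against 147 to 557 RPM) went into this difference.

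The rise of the Zglp1 row with B2RA was larger in Zko_E5 than in Zko_G10, by 1.76 ± 0.36 on the log2 scale (adjusted p = 0.0200), a contrast chosen after the values had been seen. The same difference with BMP2 was 1.51 (adjusted p = 0.206), which missed the threshold.

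The mCherry row held 216.7 RPM in the E14.5 oocyte library and 230.9 RPM in the E15.5 oocyte library, in embryos without the transgene, while the E9.5 library had 0 RPM and allows up to 3 reads. Both oocyte libraries come from the Ddx4-RFP reporter. The sequence of the reporter was not analysed here, and its part in these reads was not tested.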

How the results depend on the processing

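Of 41 results with a test, 26 were called. In 516 recomputed values, 489 kept their direction and their side of the threshold, 16 lost the call, 1 gained it and 10 changed sign, all 10 of them in results that were not called. The test of RA alone at day 3.5 in H18 was not made, since Zglp1 did not reach the filter. A pseudocount of 5 took the following changes of Zglp1 under the size required: the Zglp1 knockout clones against H18 with B2RA (-0.97), SerumMinusWINDox (0.65), BMSDox (0.92) and DoxRA in OESko_A11 (0.88). Array weights ended the call of H18 with BMP2 from day 4 to day 9 (1.56, adjusted p = 0.0592), and dropping the filter gave one to B2RA at day 3.5 (2.22). With only the compared groups in the fit, the mCherry calls of Dox at day 9 (2.27, adjusted p = 0.0646) and of SerumMinusWINDox against Dox (2.29, adjusted p = 0.246) were lost. The difference of B2RA and BMP2 in H18 was 0.027 without the library with rtTA reads, and that of BMS and control was 0.052 in edgeR. The causes were not tested.

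Leaving out replicates (60 refits) gave these ranges where a call or sign moved. For Zglp1 they were 1.41 to 1.71 for H18 with BMP2 from day 4 to day 9, -0.17 to 0.012 for B2RA against BMP2 in H18, -1.42 to -0.91 for the Zglp1 knockout clones and -0.60 to 0.077 for the Stra8 knockout clones against H18 with B2RA, -0.49 to 0.13 for Dox at day 9, 0.92 to 1.31 for SerumMinusWINDox, -0.79 to 0.58 for BMS and -0.94 to 0.28 for SerumMinusWIN without Dox. For the transgene rows they were 1.87 to 2.71 for mCherry and -0.57 to 0.35 for rtTA in SerumMinusWINDox against Dox at day 9, -0.29 to 0.57 for puroR in BMSDox against Dox, and -0.040 to 0.085 for mCherry between the clones in control. At day 9 the mCherry rise ranged from 1.61 to 2.92 with Dox and from 2.74 to 4.16 with DoxRA.

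With a replicate block, which leaves out the column without a number, no call changed (Zglp1 with B2RA in the Stra8 knockout clones 2.58). The labels tie the numbers to no shared batch or day. Over 103 pairs of groups the correlation of same-numbered deviations ran from -0.36 to 0.54 (median 0.137), and 60 but not all were over 0.1, so the numbers were not taken to pair the samples.

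Counts over all genes moved by more than 1.5 times in several comparisons. edgeR called 1058 genes against 640 in limma with B2RA in the Stra8 knockout clones, 335 against 157 and 846 against 475 with BMP2 and B2RA in the Zglp1 knockout clones, 943 against 559 for these clones against H18 with BMP2, and 355 against 221 between the transgene clones. With a pseudocount of 0.5 the first 4 were 984, 289, 724 and 846, and with a pseudocount of 5 they were 142, 29, 133 and 139. With a filter of 10 RPM, H18 with BMP2 from day 4 to day 9 had 1460 called genes in place of 2237. For SerumMinusWINDox against Dox at day 9 the count of 95 became 180 with no filter, 50 with a filter of 10 RPM, 34 with array weights, 149 with the replicate block and 0 with only the groups compared. Depth limits the low values: 1 read was worth up to 1.14 RPM, so control levels of Zglp1 rest on few reads.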
